A study of Mus musculus with 2 samples.

Results

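Regulatory T cells (Treg cells) of brown adipose tissue (BAT) were compared with those of subcutaneous adipose tissue (SAT) in droplet-based single-cell RNA sequencing of CD4 T cells from wild-type (WT) C57BL/6J mice, all male and 8 weeks old. The cells had been sorted as DAPI-negative and positive for TCRb, CD3 and CD4, the fat had been digested with collagenase II, and hashtag antibodies mark the samples. Each of 2 experiments gave 1 library with 8 hashed samples, 2 from each of BAT, SAT, visceral adipose tissue (VAT) and spleen; replicates 1 and 2 are those of experiment 1 and replicates 3 and 4 those of experiment 2. All groups share genotype, strain, sex and age and received no treatment named in the labels. Nothing states that the duplicates came from separate animals, so that p-values measure only the spread between these samples.

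The cells were chosen from their RNA: a T cell had at least 1 UMI (unique molecular identifier, 1 captured RNA molecule) of the receptor chain genes Trbc1 or Trbc2, and a Treg cell at least 1 UMI of Foxp3. By this rule 298 cells were taken, 103 from BAT and 195 from SAT, of 877 Foxp3-positive T cells and of 12989 cells past the quality filter. BAT replicates 1 to 4 held 33, 20, 23 and 27 of these cells, and SAT replicates 1 to 4 held 34, 30, 53 and 78. The same T cells without a Foxp3 UMI numbered 2492 in BAT and 2278 in SAT and are called Foxp3-zero. Foxp3, Trbc1 and Trbc2 chose the cells and are described without a test.

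Treg cells restrain other immune cells, and the transcription factor Foxp3 maintains their identity. They depend on interleukin 2, which they bind with a receptor that includes the CD25 chain encoded by Il2ra. In mouse visceral fat a subset with the interleukin 33 receptor ST2 (Il1rl1), Gata3, Klrg1 and Ccr2 is well described, while Treg cells that recirculate through lymphoid organs carry Ccr7, S1pr1 and Tcf7.

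The label of the cells was held against their markers. Ikzf2, which encodes the Treg-associated factor Helios, was detected in 55.3% of Foxp3-positive cells of BAT and in 6.26% of Foxp3-zero cells of BAT. In SAT it was detected in 80.0% of Foxp3-positive and 14.5% of Foxp3-zero cells. Ctla4, an inhibitory receptor of Treg cells, was detected in 42.7% against 4.61% of these cells in BAT and in 62.1% against 12.2% in SAT. Il2ra was detected in 23.3% against 1.48% in BAT and in 32.8% against 3.29% in SAT. The other 5 Treg markers (Tnfrsf18, Izumo1r, Nrp1, Gpr83 and Lrrc32) were also detected in a larger share of Foxp3-positive than Foxp3-zero cells in both tissues. Cd3d was detected in 95.1% of the Foxp3-positive cells of BAT and 99.0% of those of SAT, and Cd4, whose RNA is captured less often, in 45.6% and 53.8%.

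The cells of BAT were fewer and shallower than those of SAT. Foxp3-positive cells made up 6.47%, 4.38%, 2.31% and 4.27% of the T cells in BAT replicates 1 to 4 and 10.8%, 9.26%, 6.25% and 7.91% in SAT replicates 1 to 4 (mean 4.36 ± 1.70% against 8.55 ± 1.94%, SD, n = 4 each). The BAT sample was below the SAT samples in each experiment, and the groups overlapped by 1 sample, BAT replicate 1. After every cell was thinned to 1000 UMIs the shares averaged 1.45 ± 0.613% in BAT and 2.49 ± 0.527% in SAT. As a comparison, the cells in which neither Trbc1 nor Trbc2 was detected, some of which may be T cells since all cells had been sorted on TCRb, had a Foxp3 UMI in 4 of 106 cases in experiment 1 (3.77%, exact 95% interval 1.04 to 9.38%) and in 6 of 94 in experiment 2 (6.38%, 2.38 to 13.4%). Their median depth was 4723.5 and 2342.5 UMIs, against 6121 and 4316.5 UMIs in the T cells of the 2 libraries. BAT replicate 3 was below the interval of its library, SAT replicate 1 was above it, and the other 3 samples of each tissue were within it. The shares were not read as a difference in Treg numbers. Of the Foxp3-positive cells, 72.7%, 65.0%, 73.9% and 44.4% had exactly 1 Foxp3 UMI in BAT and 35.3%, 23.3%, 50.9% and 46.2% in SAT, just inside the threshold. The share with Ikzf2 or Ctla4, used below for a narrower definition, was 69.7%, 70.0%, 47.8% and 74.1% in BAT and 91.2%, 96.7%, 71.7% and 82.1% in SAT.

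The summed depth per sample was 221820, 122256, 167633 and 114764 UMIs in BAT and 313915, 260707, 341097 and 422682 UMIs in SAT. Levels are given as CPM, counts of UMIs scaled to a total of 1000000 per sum, in which 1 UMI equals 4.51 to 8.71 CPM in BAT and 2.37 to 3.84 CPM in SAT, so that low levels rest on few molecules. The hashtag signal was weak in BAT replicate 4 (median 28 counts in its cells) and SAT replicate 1 (13 counts), and calls lost without both samples are given below. The 2 libraries shared 20 cell barcodes. UMIs of genes that mark other cell types were present in 39.4%, 40%, 34.8% and 14.8% of the Foxp3-positive cells of BAT and 41.2%, 40%, 18.9% and 6.41% of those of SAT.

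**Figure D1:**
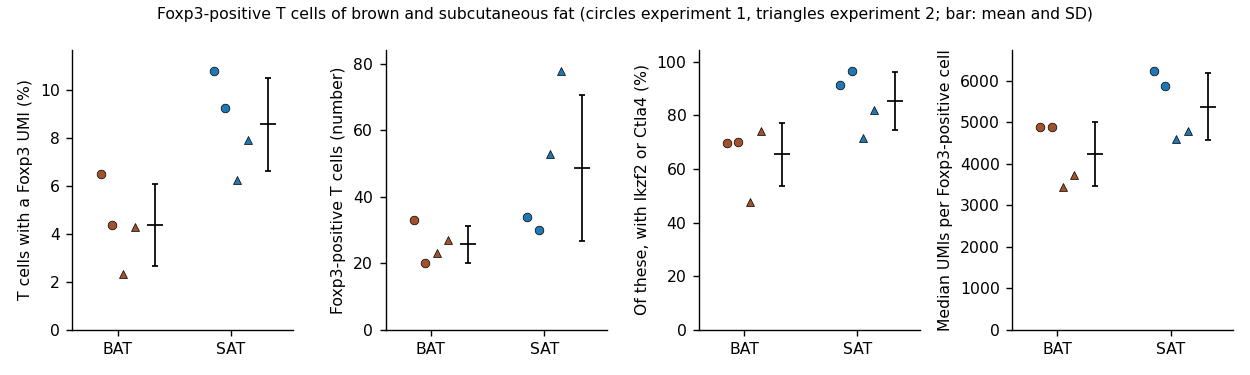
Share of T cells with a Foxp3 UMI (percent), number of Foxp3-positive T cells, their share with Ikzf2 or Ctla4 (percent) and their median UMIs per cell in each hashed sample, with 4 BAT samples left of 4 SAT samples, circles for experiment 1 and triangles for experiment 2, and bars for the mean and SD. BAT samples hold 20 to 33 Foxp3-positive cells and SAT samples 30 to 78.

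UMIs were summed per hashed sample and BAT was set against SAT with the experiment as a term (edgeR's quasi-likelihood test, Benjamini-Hochberg adjusted p at 0.05). Of 4997 genes tested, 97 were called, which is 1.94%: 66 were higher in BAT (1.32%) and 31 lower (0.62%). An unadjusted p under 0.05 was reached by 655 genes. Of the 66 higher genes 29 encode ribosomal proteins and 37 do not. The split depended on the scaling: with library size alone 36 genes were higher and 48 lower, 42.9% higher against 68% with TMM factors, and the median log2 fold change of all genes moved to -0.0902. The 4 samples of BAT lay entirely above or below the 4 of SAT for 54 of the 97 genes (55.7%), which were called for this difference, and for 287 of all 4997 genes tested (5.74%). When each of the 8 samples was left out in turn, 28 of the 97 calls held in every fit. These include Hspa1a, Hspa1b, Dnajb1, S1pr1, Rps27, Klrg1, Ccr2 and Dusp5. There were 45 calls without BAT replicate 1 and 48 without SAT replicate 2, and 45 without both weakly hashed samples, where 41 of the 97 were still called. After every cell was thinned to 1000 UMIs, which made UMIs per cell equal but not the summed depth or the number of cells, 704 genes could be tested and 30 were higher and 28 lower in BAT. The thinned sums rest on fewer molecules, and the random draw behind them was not repeated. Within experiment 1 and experiment 2 the log2 fold change was 1.88 and 2.39 for Hspa1a, 1.03 and 0.82 for S1pr1, -1.61 and -1.75 for Klrg1 and -1.94 and -1.26 for Ccr2.

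**Figure D2:**
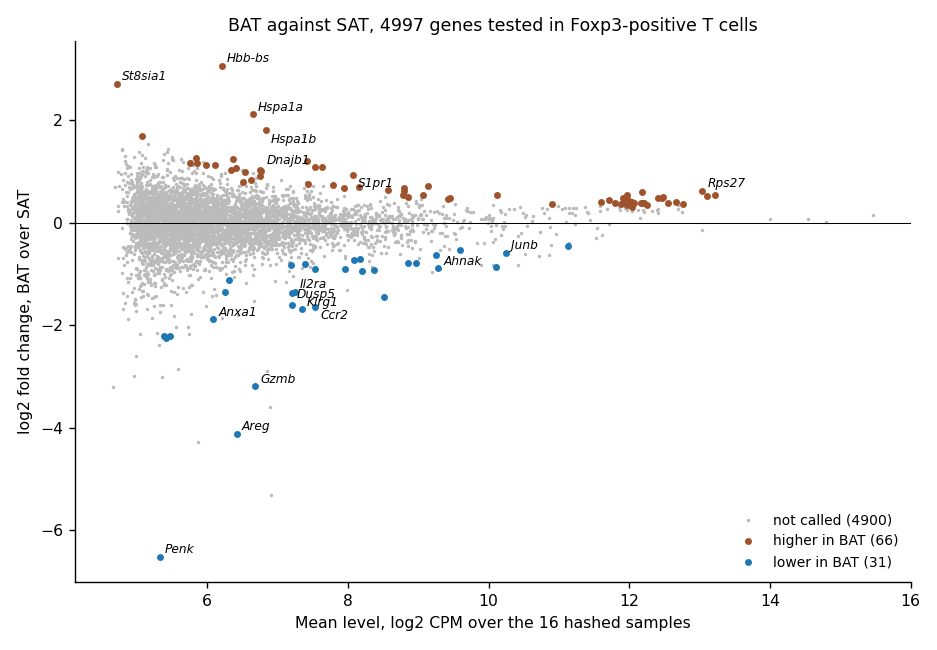
Log2 fold change of BAT over SAT against mean level (log2 CPM) for the 4997 genes tested in Foxp3-positive cells. The 66 genes called higher in BAT lie above 0 and the 31 called lower below it.

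Of the listed receptor and factor genes of Treg cells, not all of them limited to Treg cells, 2 were called, both lower in BAT. These were Il2ra and Il2rb, among 15 of 18 listed genes that could be tested, where 0.62% of all genes tested were lower. The median log2 fold change was -0.616 against -0.00688 over all genes tested. Il2ra had 54.1, 98.15, 17.9 and 43.57 CPM in BAT and 79.64, 253.2, 108.5 and 108.8 CPM in SAT. The groups overlapped, and the log2 fold change was -1.35 ± 0.34 (SE, edgeR adjusted p = 0.0321). This call was lost without any one of BAT replicates 1, 3 and 4 and SAT replicates 2 and 4 (adjusted p = 0.0635 to 0.173). Il2rb, which encodes the chain shared by the receptors for interleukins 2 and 15, had 148.8, 163.6, 196.9 and 174.3 CPM in BAT and 423.7, 337.5, 263.9 and 331.2 CPM in SAT. All BAT samples were below all SAT samples, with a log2 fold change of -0.91 ± 0.19 (adjusted p = 0.00871). The call was lost without BAT replicate 1 (adjusted p = 0.0683) and without both weakly hashed samples (0.0929). The mean level of Il2rb in SAT was 339.1 CPM in Foxp3-positive and 316.6 CPM in Foxp3-zero cells. Ikzf2, Ctla4 and Icos did not pass, with log2 fold changes of -0.45 (adjusted p = 0.264), -0.87 (0.106) and -0.74 (0.0919). These results changed with thinning and with the filter. After thinning to 1000 UMIs 8 genes of the list could be tested and 5 were called lower, where 28 of all 704 genes tested were. These were Ikzf2 (-0.87, adjusted p = 0.0113), Icos (-1.53, 0.0412), Tnfrsf4 (-1.27, 0.0107), Capg (-1.05, 0.0311) and Il2rb. With no filter on low counts 9 of 18 were called lower, Ctla4 (-0.99, adjusted p = 8.08e-06) among them. That fit called 133 of 17823 genes lower. Its p-values are not comparable with those of the main fit, since the genes kept also set the estimate of the spread. Ctla4 was also called without BAT replicate 1 (-1.42, 0.0237). The rest ranged from -1.53 for Tnfrsf9, which encodes the costimulatory receptor 4-1BB, to 1.28 for Nt5e, which encodes the ectonucleotidase CD73, and none passed; Nrp1 (0.51) and Izumo1r (0.51) lay above 0 too. Gpr83, Itgae and Tigit were too low to be tested. An unadjusted p under 0.05 was reached by 12 of the 15. In the Foxp3-zero cells of BAT 9 of 15 tested genes of the list fell and 0 rose, with a median of -1.03. There 18.5% of all genes tested were lower.

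Genes described in fat Treg cells were lower where they were called. Of 25 listed genes 15 were tested, 4 fell (Areg, Ccr2, Klrg1 and Penk) and none rose, where 0.62% of all genes tested were lower. Areg and Penk passed the low-count filter only through samples of other tissues. The median log2 fold change was -0.79, with a negative sign in 14 of 15. In the Foxp3-zero cells of BAT 9 of 17 tested genes of the list fell and 0 rose, with a median of -0.92. There 18.5% of all genes tested were lower. Klrg1, which encodes an inhibitory lectin-like receptor of differentiated cells, had 103.7, 57.26, 47.72 and 52.28 CPM in BAT and 245.3, 322.2, 102.6 and 248.4 CPM in SAT. BAT replicate 1 and SAT replicate 3 met at about the same level, and every other BAT sample was below every SAT sample. The log2 fold change was -1.69 ± 0.28 (adjusted p = 0.000784). Ccr2, the receptor for the chemokine CCL2, had 54.1, 65.44, 83.52 and 60.99 CPM in BAT and 187.9, 299.2, 126.1 and 246.0 CPM in SAT. The groups did not overlap, and the log2 fold change was -1.64 ± 0.30 (adjusted p = 0.00248). Both calls were lost when cells were thinned to 1000 UMIs, with log2 fold changes of -1.44 (adjusted p = 0.0859) and -1.16 (0.21). Without both weakly hashed samples they were -1.82 for Klrg1 and -1.85 for Ccr2, and both were called.

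Il1rl1 and Gata3, which mark the ST2-positive subset, were not called. Il1rl1 had 49.59, 49.08, 17.9 and 43.57 CPM in BAT and 38.23, 99.73, 23.45 and 35.49 CPM in SAT. The samples overlapped widely, with a log2 fold change of -0.28 ± 0.39 (adjusted p = 0.851). Gata3 had a log2 fold change of -0.44 (adjusted p = 0.382). The transcription factors Batf (-0.52), Rora (-0.70) and Id2 (-0.79) also did not pass, and Pparg, which directs the visceral fat programme, was too low to be tested, as were Il10, Cd36, Dgat2, Il9r, Nfil3, Ccr1, Pcsk1, Tox2 and Hpgds. Ltb4r1, which encodes a leukotriene B4 receptor, had a log2 fold change of -1.80 (adjusted p = 0.106), and Ccr3, Itgav and Dgat1 had -1.17, -0.41 and -0.41.

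Products of Treg cells included the called genes with the largest falls, all of them low. Of 14 listed genes 10 were tested and Areg, Gzmb and Penk fell, where 0.62% of all genes tested were lower. With 2, 7 and 0 UMIs in BAT, these genes passed the low-count filter only through samples of other tissues. Their falls are therefore not a test of the list. In the Foxp3-zero cells of BAT 7 of 8 tested genes of the list fell, with a median of -2.25. There 18.5% of all genes tested were lower. Areg, which encodes the tissue-repair ligand amphiregulin, had 4.508, 0, 0 and 8.714 CPM in BAT and 73.27, 26.85, 55.7 and 68.61 CPM in SAT. That is 2 UMIs in BAT against 78 in SAT, a ratio of 0.0548 (95% counting interval 0.00663 to 0.198), and all BAT samples were below all SAT samples. The edgeR adjusted p was 0.02, and the call was lost without any one of BAT replicates 1, 2 and 3 (0.0525 to 0.134). Penk, which encodes proenkephalin, was not detected in any BAT sample and had 12.74, 130.4, 14.66 and 0 CPM in SAT. With 3 UMIs over the BAT group as the floor it was at least 6.71-fold lower in BAT (adjusted p = 0.048), and most of the SAT signal lay in replicate 2. Without that sample the adjusted p was 0.3, and the call was lost without any single sample other than SAT replicates 1 and 4 (0.0585 to 0.3). Gzmb, which encodes the cytotoxic protease granzyme B, had 4.508, 24.54, 11.93 and 8.714 CPM in BAT and 60.53, 61.37, 73.29 and 262.6 CPM in SAT. The groups did not overlap (log2 fold change -3.19 ± 0.82, adjusted p = 0.0344), and SAT replicate 4 was the highest. The call was lost without any one of BAT replicates 1, 3 and 4 and SAT replicates 2 and 4 (0.0537 to 0.163). The chemokine gene Cxcl2 had 306.6 CPM in BAT replicate 1 and 0, 0 and 34.85 CPM in the other BAT samples, against 9.557, 42.19, 2.932 and 52.05 CPM in SAT, and did not pass (adjusted p = 0.357).

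Genes of recirculating naive-like T cells were higher where they were called. Of 18 listed genes 17 were tested, 7 rose, among them S1pr1, Tcf7, Satb1, Klf2, Foxp1 and Il7r, and none fell. Of all genes tested 1.32% were higher. The median log2 fold change of the list was 0.893, with a positive sign in 17 of 17. S1pr1, which encodes the receptor that lets lymphocytes leave lymphoid tissue along sphingosine 1-phosphate, had 414.8, 417.2, 238.6 and 400.8 CPM in BAT and 210.2, 226.3, 196.4 and 177.4 CPM in SAT. The groups did not overlap, and the log2 fold change was 0.93 ± 0.16 (adjusted p = 0.00182). Tcf7, a transcription factor of naive and memory T cells, had 315.6, 229.0, 340.0 and 296.3 CPM in BAT and 159.3, 72.88, 234.5 and 120.7 CPM in SAT. SAT replicate 3 exceeded BAT replicate 2, and the log2 fold change was 1.09 ± 0.27 (adjusted p = 0.026). Without SAT replicate 2 only S1pr1 of the 7 genes was still called, the other 6 having adjusted p of 0.052 to 0.146. Without BAT replicate 1 only S1pr1 and Klf2 were called, the other 5 having adjusted p of 0.0704 to 0.171. Tcf7 was lost also without BAT replicate 3 or 4 or SAT replicate 4. After thinning to 1000 UMIs 8 of the list could be tested, and Tcf7 (0.43, adjusted p = 0.66), Il7r (0.33, 0.581) and Foxp1 (0.84, 0.283) were not called, while S1pr1 and Klf2 were. Without both weakly hashed samples the adjusted p was 0.104 for Tcf7 and 0.12 for Klf2. Ccr7 (0.63, adjusted p = 0.278) and Lef1 (0.72, 0.096) did not pass, the other 8 not called ranged from 0.42 for Ly6c1 to 1.24 for Nsg2, and Ccr9 was too low to be tested. All 18 genes of the list rose in the Foxp3-zero cells of BAT, where 13.8% of all genes tested were higher, with a median log2 fold change of 1.09, and no member had a called interaction.

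**Figure D3:**
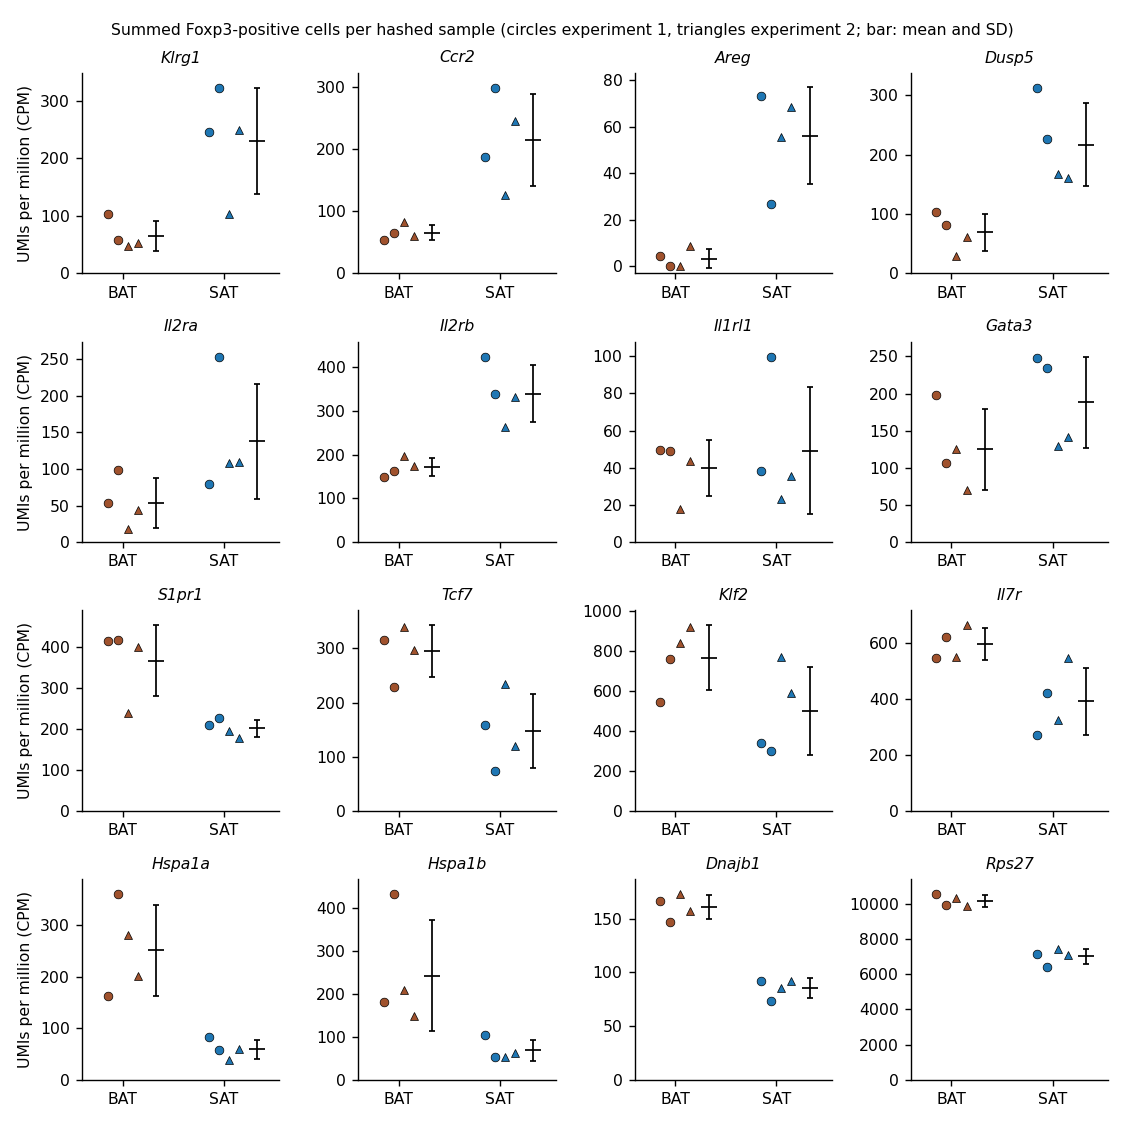
CPM of 16 genes in the summed Foxp3-positive cells of each hashed sample, BAT left of SAT, circles for experiment 1 and triangles for experiment 2, with bars for the mean and SD. Ccr2, Areg and Dusp5 are lower in BAT, as is Klrg1 apart from BAT replicate 1, which meets SAT replicate 3. Il1rl1 and Gata3 overlap, and S1pr1, Hspa1a and Rps27 are higher in BAT.

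The inducible heat shock genes were higher in BAT. Hspa1a and Hspa1b encode the inducible HSP70 chaperone, and Dnajb1 encodes its HSP40 partner. Both HSP70 genes lie on chromosome 17 and are near-identical copies, so that reads could have been split between them by the counting. The 250 bases before each gene's start are shown because these genes moved together; capitals mark the only match to GAANNTTC, a form of the heat shock element (credited to RefSeq, build GRCm38.p6, minus strand, chr17:34972157-34972406 for Hspa1a and chr17:34959239-34959488 for Hspa1b).
Hspa1a: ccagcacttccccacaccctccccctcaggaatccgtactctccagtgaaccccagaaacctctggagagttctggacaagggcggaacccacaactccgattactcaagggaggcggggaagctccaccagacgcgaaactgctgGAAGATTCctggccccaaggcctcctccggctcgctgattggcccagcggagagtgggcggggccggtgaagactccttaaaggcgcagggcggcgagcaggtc
Hspa1b: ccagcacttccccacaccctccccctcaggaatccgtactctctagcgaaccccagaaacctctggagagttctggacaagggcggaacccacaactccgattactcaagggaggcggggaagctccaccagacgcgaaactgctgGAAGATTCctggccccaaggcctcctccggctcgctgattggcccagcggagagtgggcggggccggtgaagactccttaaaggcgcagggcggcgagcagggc
The windows differ at 3 bases (98.8% identical), and the match begins 104 bases before the start. Both strands read alike for this motif, which was found in 6.69% of 32851 promoter windows of 250 bases. It was chosen after its matches were seen, out of 3 forms searched; TTCNNGAA (7.17% of windows) and GAANNTTCNNGAA (0.466%) had no match in these genes, and none of the 3 forms was in the 2 windows listed for Dnajb1.

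Hspa1a had 162.3, 359.9, 280.4 and 200.4 CPM in BAT and 82.82, 57.54, 38.11 and 59.15 CPM in SAT. Every BAT sample was above every SAT sample, and the log2 fold change was 2.11 ± 0.31 (adjusted p = 0.000261). Hspa1b had 180.3, 433.5, 208.8 and 148.1 CPM in BAT and 105.1, 53.7, 52.77 and 61.51 CPM in SAT, again without overlap (1.81 ± 0.30, adjusted p = 0.000784). Dnajb1 had 166.8, 147.2, 173.0 and 156.8 CPM in BAT and 92.38, 72.88, 85.02 and 92.27 CPM in SAT. These groups did not overlap either (1.00 ± 0.20, adjusted p = 0.00756), and the call was lost without cells that carried UMIs of other types (0.207). The rest of the list did not follow: of 18 genes 16 were tested, 3 rose and Hspa5, an endoplasmic reticulum chaperone, fell (-0.74, adjusted p = 0.0452), a call lost without any single sample other than SAT replicate 4 (0.0756 to 0.199). Of all genes tested 1.32% were higher and 0.62% lower. The median over the list was 0.114, and 8 of the 16 were positive with library size scaling. In the Foxp3-zero cells 12 of 18 rose and 1 fell, where 13.8% of all genes tested were higher and 18.5% lower. The interaction for Hspa1a was 0.55 (adjusted p = 0.621). After thinning Hspa5 was not called (-0.74, adjusted p = 0.288), and Hspa1a, Hspa1b and Dnajb1 were too low to be tested.

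Of 94 listed ribosomal protein genes 84 were tested, where 1.32% of all genes tested were higher. Of the list 29 rose, none fell and 55 did not pass, with a median log2 fold change of 0.281. In DESeq2 39 rose, after thinning to 1000 UMIs 23 of 80, and with library size scaling 17. With no filter on low counts 11 of 90 rose, and where Ikzf2 or Ctla4 was required 3. None fell in any of these fits. Over all genes the same fits, in this order, called higher 73 of 4997, 30 of 704, 36 of 4997, 31 of 17823 and 8 of 4500. Rps27, a protein of the small ribosomal subunit, had 10550, 9914, 10310 and 9881 CPM in BAT and 7145, 6413, 7438 and 7083 CPM in SAT. The groups did not overlap, and the log2 fold change was 0.62 ± 0.08 (adjusted p = 7.23e-05). The genes of the list made up 28.9 ± 3.29% of UMIs in BAT and 24.2 ± 1.65% in SAT (SD, n = 4 each). In the Foxp3-zero cells 81 of 88 rose and 1 fell, against the 13.8% and 18.5% over all genes. The median depth of the Foxp3-positive cells was 4882, 4885, 3432 and 3717 UMIs in BAT and 6241, 5866, 4587 and 4794.5 UMIs in SAT.

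In the lists of S100 and annexin, immediate early, Th1, glycolysis and interferon-induced genes 1 to 3 genes were called in each, all lower in BAT. Of all genes tested 0.62% were lower. In the Foxp3-zero cells of BAT 16 of 17 tested S100 and annexin genes and 9 of 15 glycolysis genes fell. All 16 interferon-induced genes fell, as did 11 of 15 NF-kB and 12 of 13 cell cycle genes. Of 22 immediate early genes 19 fell and 1 rose. Of all genes tested in those cells 18.5% were lower and 13.8% higher. Outside these lists, Dusp5, which encodes a phosphatase of the ERK kinases, had 103.7, 81.8, 29.83 and 60.99 CPM in BAT and 312.2, 226.3, 167.1 and 160.9 CPM in SAT. The groups did not overlap, and the log2 fold change was -1.61 ± 0.24 (adjusted p = 0.000261). In Foxp3-zero cells it was -1.86, and the interaction was not called (0.28, edgeR adjusted p = 0.896). Of the 17 tested S100, annexin, galectin and cytoskeleton genes 3 fell, Ahnak, Anxa1 and S100a11, and none rose, with a median of -0.623. After thinning 7 of 12 fell, S100a6 (-0.85, adjusted p = 0.00282) and Vim (-0.81, 0.0225) among them, and S100a11 was not called (-0.41, 0.329). The thinned fit called 28 of 704 genes lower. Anxa1, a phospholipid-binding annexin, had 27.05, 40.9, 23.86 and 0 CPM in BAT and 79.64, 95.89, 85.02 and 94.63 CPM in SAT. All BAT samples were lower (-1.89 ± 0.41, adjusted p = 0.0116), and the call was lost without BAT replicate 1 (0.0799). That of S100a11 was lost without BAT replicate 1 or 4 or SAT replicate 2, 3 or 4 (0.0933 to 0.203). Of 18 tested immediate early genes Junb, a subunit of the factor AP-1, fell (-0.59, adjusted p = 0.0144) and 17 did not pass; the call was lost without BAT replicate 2 or 4 or SAT replicate 3 (0.0534 to 0.0861). None of 15 NF-kB genes passed in edgeR or DESeq2, with 3 at an unadjusted p under 0.05. Nfkbia, which encodes an inhibitor of NF-kB, was called after thinning (-1.13, adjusted p = 0.0134), with no filter on low counts (-0.81, 2.93e-05), with BAT and SAT samples alone in the fit (-0.69, 0.0404) and without cells that carried UMIs of other types (-1.26, 0.0103). None of 8 cell cycle genes passed in either tool, with 4 at an unadjusted p under 0.05 and a negative log2 fold change in 8 of 8 (median -1.46); with no filter on low counts 8 of 13 were called lower, and after thinning Hmgb2 was, 1 of 2 that could be tested. Top2a, which marks dividing cells, had 2 UMIs in BAT against 89 in SAT (ratio 0.048, 0.00581 to 0.173, adjusted p = 0.122). Of 12 tested Th1 genes Gzmb fell and 11 did not pass, with a median of -1.01. Gzmb passed the low-count filter only through samples of other tissues. After thinning Ccl5 was called (-0.86, adjusted p = 0.0366), and with no filter on low counts 8 of 17 Th1 genes were called lower. For these, Nfkbia and the cell cycle genes, p-values of the fit with no filter are not comparable with those of the main fit. That fit called 133 of 17823 genes lower. All 17 listed Th1 genes fell in the Foxp3-zero cells of BAT, where 18.5% of all genes tested were lower. Of 13 tested glycolysis genes Tpi1, which encodes triosephosphate isomerase, fell (-1.12, adjusted p = 0.0269), a call lost without BAT replicate 1, 3 or 4 or SAT replicate 2 or 3 (0.0525 to 0.187). Of 14 tested interferon-induced genes Ly6a fell (-0.92, adjusted p = 0.00766), a call lost without BAT replicate 1 (0.0512). Ifi27l2a was called after thinning (-0.76, adjusted p = 0.00494). Of the remaining named genes, St8sia1, which encodes the GD3 ganglioside synthase, rose most after the haemoglobin gene, with 31.56, 40.9, 35.79 and 34.85 CPM in BAT and 3.186, 3.836, 8.795 and 4.732 CPM in SAT (2.71 ± 0.58, adjusted p = 0.00961); without both weakly hashed samples it was not called (0.0882). Dyrk2, a protein kinase gene, also rose (1.70, adjusted p = 0.0247) and was lost without BAT replicate 1 or SAT replicate 1 or 2 (0.0503 to 0.136). AW112010 was chosen after its values were seen, outside the naming rule, because it was called under 24 of 25 settings (-0.87).

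**Figure D4:**
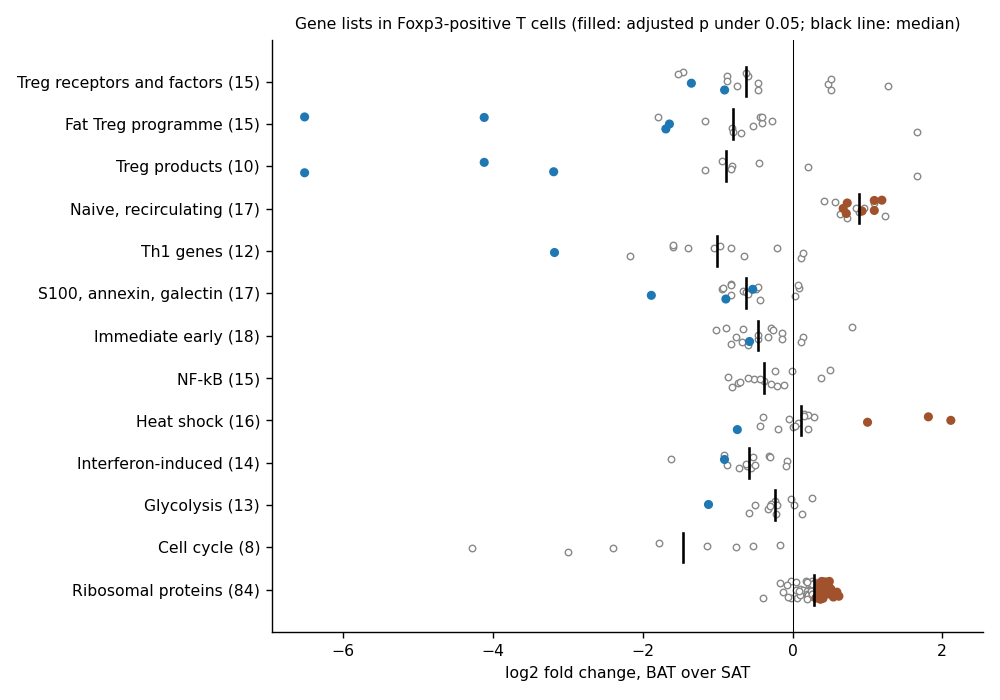
Log2 fold change of BAT over SAT in Foxp3-positive cells for the tested genes of 13 lists, with called genes filled, the median of each list as a black line and Penk, which had no UMI in BAT, at its fitted -6.52. The naive list lies above 0, most Treg and fat Treg genes lie below it, and 29 of 84 ribosomal genes are called higher.

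Among markers of other cells, a haemoglobin gene was called. Of the 4 erythroid genes 1 was tested, and Hbb-bs, a haemoglobin chain, had 31.56, 654.4, 334.1 and 17.43 CPM in BAT and 54.15, 49.86, 29.32 and 0 CPM in SAT (log2 fold change 3.06, adjusted p = 0.00766). BAT replicates 2 and 3 carried it, and the call was lost without either (0.116 and 0.0712). The summed level of the 4 genes was 17.43 to 1047 CPM in BAT and 9.463 to 89.2 CPM in SAT, and none was at 0 in all samples. Of the 10 myeloid markers 1 was tested and not called, the list sums being 95.45 to 130.9 CPM in BAT and 151.4 to 184.7 CPM in SAT, with S100a8, S100a9 and Adgre1 at 0. Of the 7 B cell markers 2 were tested and none called, with 226.7 to 496.7 CPM in BAT and 296.3 to 437.3 CPM in SAT. The 7 adipocyte markers, of which Plin1 and Cidea were at 0, summed to 11.93 to 148.8 CPM in BAT and 15.34 to 191.6 CPM in SAT, and no fibroblast marker of 8 was tested. The 5 T cell markers were tested and none was called in edgeR or DESeq2, with 0 at an unadjusted p under 0.05.

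Calls of 47 named genes were followed through the alternatives. Without both weakly hashed samples 27 were lost, among them Gzmb (adjusted p = 0.138), Ahnak (0.0722), Junb (0.125), Tpi1 (0.133), S100a11 (0.125), Hspa5 (0.256), Dyrk2 (0.101), Satb1 (0.104), Foxp1 (0.113) and Il7r (0.265), besides those given above. Without the cells that carried UMIs of other types 11 of 41 were lost: these include Dnajb1, Anxa1 (adjusted p = 0.054), Il2ra (0.0576), S100a11 (0.0576), Satb1 (0.0576) and Tpi1 (0.0885). The same fit called 12 named genes that were not called before, Ikzf2 (-0.80, 0.0194) and the costimulatory receptor gene Tnfrsf18 (-0.75, 0.0368) among them. In DESeq2 5 were lost, Gzmb (0.0662), Hbb-bs (0.0662), Tpi1 (0.0686), Satb1 (0.132) and Arhgef3 (0.0504), and 6 had no adjusted p. With a stricter hashtag margin 15 of 46 were lost, among them Il2ra (0.0891), Hbb-bs (0.0925), Penk (0.114) and Hspa5 (0.112). With library size scaling 9 were lost, among them Penk (0.0513), Foxp1 (0.0574) and Il7r (0.0621). A fit of the BAT and SAT samples alone gave 59 higher and 44 lower genes of 3357, kept 39 of the 40 calls that it could test and added 10, which were Ccl5, Ctla4, Cxcr3, Hopx, Lgals1, Nfkbia, Ppp1r15a, S100a6, Tnfrsf9 and Vim, all lower in BAT (adjusted p = 0.0212 to 0.0466). With no filter on low counts 8 were lost and 28 added, of which Cxcl2 was higher in BAT (1.56, 0.00018). Cxcl2 had 68 UMIs in BAT replicate 1 and 0, 0 and 4 in the other BAT samples. The p-values of that fit are not comparable with those of the main fit.

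The comparison was repeated in the 68 cells of BAT and 162 of SAT that also had a UMI of Ikzf2 or Ctla4. Of 4500 genes tested 13 were called, which is 0.289%, with 8 higher and 5 lower in BAT. All 13 were among the 97 above, of which 96 could be tested; the cells are a subset of the same cells. The higher genes were Hspa1a (log2 fold change 2.38, adjusted p = 0.000139), Hspa1b (1.91, 0.000894), Dnajb1 (1.20, 0.00307), S1pr1 (0.89, 0.0189), Rps27, Rps19, Rps24 and Lat. The lower ones were Klrg1 (-1.46, 0.0147), Ccr2 (-1.43, 0.0189), Dusp5 (-1.60, 0.00227), Arl5a and AW112010. Il2ra (-1.28, 0.117) and Areg (-3.88, 0.0808) did not pass in this smaller set. Il1rl1 had a log2 fold change of 0.03 (adjusted p = 0.999). Leaving out 1 sample gave 5 calls without BAT replicate 2, 8 without BAT replicate 1 or SAT replicate 4, and 23 without BAT replicate 4.

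The share of Foxp3-positive cells with a UMI was compared for 11 genes with a 2-sided exact permutation test within experiments, whose smallest p is 0.0556. Klrg1 was detected in 16.7 ± 3.86% of these cells in BAT and 45.3 ± 16.4% in SAT (exact p = 0.0556, adjusted over the 11 genes 0.136, n = 4 each). In Foxp3-zero cells it was detected in 1.82 ± 0.88% of BAT and 13 ± 5.14% of SAT cells. After thinning to 1000 UMIs the Foxp3-positive shares were 4.61 ± 3.72% and 17.7 ± 9.77%. Cxcr3, a chemokine receptor of Th1-type cells, was detected in 22.6 ± 5.53% in BAT and 51.2 ± 11.2% in SAT (exact p = 0.0556). Gata3 was detected in 35.2% in BAT and 50.7% in SAT, and in 10.5% and 9.64% after thinning. No gene reached 0.05, which this design does not allow.

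The same contrast in the Foxp3-zero T cells of these samples called 3380 of 10478 genes, 32.3%, with 1446 higher and 1934 lower in BAT. A test of the difference between the classes, with the sample as a block, called 41 of 8718 genes, 0.47%: 36 with a positive and 5 with a negative interaction. For all 36 positive ones the gene was called lower in the Foxp3-zero cells of BAT, and of the 32 that were tested in Foxp3-positive cells 20 had a negative and 12 a positive log2 fold change there; 3 of the 32 were called, all lower. Of the 97 genes called in Foxp3-positive cells 96 entered this test, and 3 of them (Il2rb, Ahnak and AW112010) had a called interaction. Itgb1, an integrin chain of memory cells, had a log2 fold change of 0.34 in Foxp3-positive and -1.71 in Foxp3-zero cells (interaction 2.02 ± 0.23, adjusted p = 1.79e-06). Fgl2, a secreted Treg product, had -0.80 and -2.77 (2.07 ± 0.28, 5.04e-05). Il2rb had -0.91 and -2.23 (1.29 ± 0.19, 0.000343). Maf, Hopx and S100a6 had interactions of 1.57, 1.29 and 1.18 (adjusted p = 0.000397, 0.000437 and 0.000547). Klrg1 (1.06, 0.365) and Ccr2 (0.21, 0.95) had no called interaction, nor had Hspa1a. After thinning 12 of 3275 interactions were called, and those of Fgl2 (1.82, adjusted p = 0.472), Il2rb (1.10, 0.619), Maf (1.24, 0.276) and Hopx (1.21, 0.438) were not. There were 16 called interactions without BAT replicate 1 and 24 without SAT replicate 1.

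**Figure D5:**
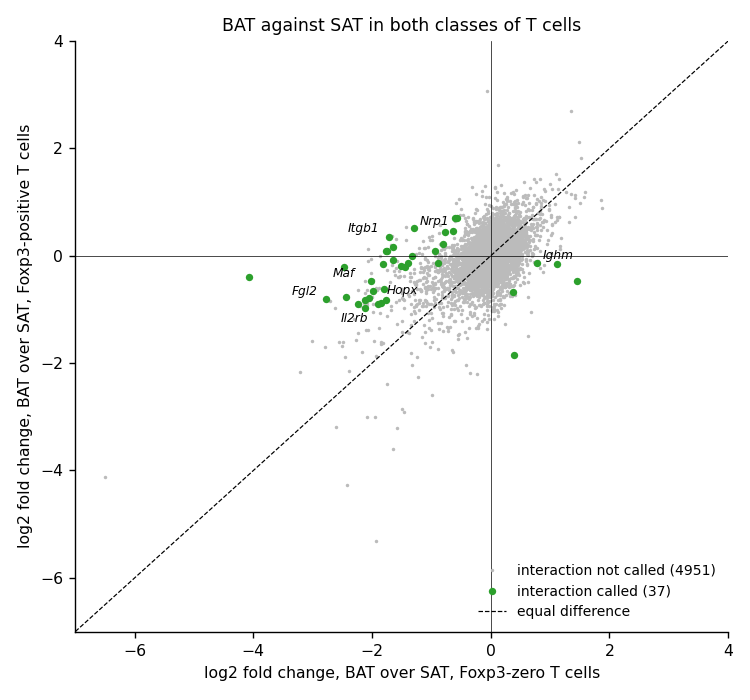
Log2 fold change of BAT over SAT in Foxp3-positive cells (vertical axis) against that in Foxp3-zero cells (horizontal axis) for 4988 genes; points off the dashed line differ between the classes. The 37 genes with a called interaction are green, and those with a positive one lie left of 0 and above the line.

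Compared with VAT and spleen in the same fit, BAT gave 297 called genes of 4997 against VAT (5.94%) and 60 against spleen (1.2%); these comparisons share the BAT samples with that against SAT. Il1rl1 was lower in BAT than in VAT (log2 fold change -1.98, adjusted p = 0.000142) and did not pass against spleen (0.85, 0.61). Klrg1 was lower than in VAT (-1.76, 8.69e-05) and Ccr2 too (-2.31, 4.51e-06). Neither passed against spleen (0.47, 0.769, and 0.48, 0.789). Hspa1a was higher than in VAT (1.07, 0.0152) and than in spleen (5.90, 1e-09). Hspa1b (0.64, 0.184) and Dnajb1 (0.58, 0.0778) did not pass against VAT. Both were higher than in spleen (4.45, 6.57e-09, and 1.26, 0.000537). Spleen was not digested with collagenase, and in the comparison with spleen tissue and digestion cannot be told apart. S1pr1 was higher than in VAT (0.76, 0.00282) and did not pass against spleen (0.38, 0.427).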

How the data were processed

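The authors deposited 1 sparse matrix of raw UMI counts per library, with gene and hashtag counts per cell barcode for 55487 genes; Cell Ranger 6.1.0 and the build mm10 are given per the file headers, and bcl2fastq and Seurat per the submitters' processing notes, with settings not given in the sources used here. No gene count had been scaled.

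The quality filter asked for 500 or more genes, 1000 or more gene UMIs and a mitochondrial share below 10%, which left 3985 of 4485 and 9004 of 12239 barcodes, and no doublet caller was run. In each library the labelled hashtag counts plus 1 were divided by their medians, and the top tag gave the sample if it was at least 2 times the second, so that cells with 2 strong tags were left out: 293 of 360 and 422 of 517 Foxp3-positive T cells took a tissue. Raw UMIs were summed per hashed sample and tested with edgeR 4.0.16 (R 4.3.3; TMM, filterByExpr at 10 counts, all 4 tissues in 1 fit, experiment as a term). Foxp3, Trbc1 and Trbc2, and in the repeat Ikzf2 and Ctla4, were left out of the tests. The scripts were tested on simulated data. Cells, gene lists and tests were chosen with earlier results of these data known; the ribosomal list was corrected after results were seen, because its first form also matched other genes. Named genes were up to 15 with the largest change in each direction, the members of 4 lists (Treg, fat Treg, naive and heat shock), up to 4 of lowest p of the other lists, and the 6 of lowest p of the interaction. Of the gene IDs 54435 were found in GENCODE vM21; 114 symbols stand for several IDs. Intervals and floors cover counting error only. DESeq2 1.42.0, other scalings and filters, thinning, other hashtag margins and leaving out samples were alternatives. Some genes that the naming rule or a marker list would give are not reported here.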

Additional observations from a re-analysis of the deposited data

Results flagged for a closer look

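Some samples stood apart from the other 3 of their group by Dixon's criterion, which chance meets in about 1 of 20 groups (218 groups were screened). Among BAT samples these were, in CPM of Foxp3-positive cells, Gmnn in replicate 4 (26.1), Klrg1 in replicate 1 (104.0), Izumo1r in replicate 4 (331.0), Ltb4r1 in replicate 1 (49.6), Cxcl2 in replicate 1 (307.0), S1pr1 in replicate 3 (239.0), Fosb in replicate 1 (230.0), Top2a in replicate 2 (16.4) and Igkc in replicate 4 (95.8). Among SAT samples they were Penk in replicate 2 (130.0), Gzmb in replicate 4 (263.0), Il2ra in replicate 2 (253.0), Hspa1b in replicate 1 (105.0), Dgat1 in replicate 4 (59.1), Hopx in replicate 4 (338.0), Mt1 in replicate 1 (153.0), Top2a in replicate 3 (147.0) and S100a6 in replicate 2 (2540.0). The share of Foxp3-positive cells with Ikzf2 or Ctla4 was 47.8% in BAT replicate 3, and the share with Ccr7 was 17.6% in SAT replicate 1.

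The difference of BAT from SAT itself differed between Foxp3-positive and Foxp3-zero cells (edgeR interaction, adjusted p under 0.05) for Fgl2 (2.07), Itgb1 (2.02), Nrp1 (1.79), Maf (1.57), Cxcr3 (1.3), Il2rb (1.29), Hopx (1.29), Id2 (1.23), S100a6 (1.18), Ccl5 (1.1), Ahnak (1.04) and Ighm (-1.01), in log2 units. Called interactions numbered 41 in this fit, 12 after thinning and 16 without BAT replicate 1. Those of Fgl2, Il2rb, Maf and Hopx were not called after thinning. Dgat1 had a log2 fold change of BAT over SAT of 0.629 in experiment 1 and -1.92 in experiment 2, a difference that was not tested.

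Of 15 hashtags in the files 7 are named by no label, and they held 0.0856% and 0.0964% of hashtag counts in the 2 libraries.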

How the results depend on the processing

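Of the 66 genes higher and 31 lower in BAT, alternatives gave 36 and 48 with library size scaling, 31 and 133 with no filter on low counts, 30 higher after thinning to 1000 UMIs, 48 lower without cells with other-type genes, 7 and 4 without the experiment term, 11 and 7 in experiment 1 alone, 3 and 6 in experiment 2 alone, 30 and 15 without both weakly hashed samples (chosen after seeing the data) and 8 and 5 with Ikzf2 or Ctla4 required. Leaving out 1 sample gave 28 to 73 higher and 14 to 35 lower genes; without BAT replicate 1 there were 45 calls and without SAT replicate 2 there were 48. In the repeat (8 and 5) the counts were 24 and 78 with no filter, 48 and 10 with DESeq2, 9 lower with library size, 0 and 0 in experiment 1, 1 and 2 in experiment 2, and 18 and 8 without both weakly hashed samples; leaving out 1 sample gave 4 to 19 and 1 to 6. Thinning gave 459 higher and 529 lower genes in Foxp3-zero cells. The interaction (36 positive, 5 negative) gave 7 positive after thinning, 14 and 0 without both weakly hashed samples, and 15 to 41 and 1 to 8 without 1 sample. With tissue and experiment taken out, same-numbered BAT and SAT samples correlated at -0.13 to -0.0566. Those with other numbers in the same experiment correlated at -0.174 to -0.0852. With 2 samples per tissue and experiment these values cannot tell whether the numbers pair the samples. A replicate block gave 67 higher and 36 lower genes. The sign of the log2 fold change turned in experiment 2 alone for Batf (0.398), Cirbp (-0.0365), Cxcl2 (-0.94), Hspd1 (0.268), Ighm (0.00948), Il1rl1 (0.0167), Itgb1 (-0.0726) and Ly6c1 (-0.0525), and in experiment 1 alone for Dgat1 (0.629) and Igkc (-0.474). It also turned for Dgat1 with hashtag margin 3 (0.000638) and without SAT replicate 4 (0.0653), Igfbp4 without cells with other-type genes (-0.322), Igkc without BAT replicate 4 (-0.737) and without both weakly hashed samples (-1.45), Ighm without BAT replicate 3 (0.0293), Cxcl2 without BAT replicate 1 (-1.17) and Il1rl1 with Ikzf2 or Ctla4 required (0.0256). The Gata3 share difference became 0.836 points after thinning. Over the fits without 1 sample the range was -1.17 to 2.87 for Cxcl2, -0.77 to 0.0653 for Dgat1, -0.332 to 0.0293 for Ighm and -0.737 to 1.82 for Igkc. Of these genes Cxcl2 was called with no filter on low counts (1.56, adjusted p = 0.00018), and none was called in the fit reported; the causes were not tested. No called named gene changed sign under any alternative with a value. In the BAT sums of 114764 to 221820 UMIs, 3 UMIs equal 13.5 to 26.1 CPM, which limits what can be seen for genes at or below such levels.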
